A study of Homo sapiens with 12 samples.

Results

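The 4 CDC-like kinases CLK1, CLK2, CLK3 and CLK4 and 6 serine/arginine-rich (SR) splicing factors, SRSF1, SRSF2, SRSF3, SRSF5, SRSF6 and SRSF7, were followed across 12 RNA sequencing libraries of HCT116 cells. The 10 genes were taken from a list of symbols, with no threshold on their values, and were matched to 10 of the 63677 Ensembl gene identifiers in the deposited table. HCT116 is an established human colorectal cancer cell line. Each group had 3 polyA RNA libraries and carried a construct induced by doxycycline. The tested cells expressed CR3, the other constructs were called scramble and reverse, and cells with mCherry, a red fluorescent protein, were the control. The labels do not say what CR3 is. The series' design text calls the cultures clones and names variants of CR3, without a count of clones per group. All 12 libraries, the mCherry ones included, came from cells given doxycycline. The labels write its dose as 1 ug/ul and its start as 48 before RNA extraction, without a unit of time. Nothing shows that libraries of a group came from separate cultures, so p-values measure only the spread between these libraries.

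SR proteins bind exonic RNA through their RNA recognition motifs and help to recruit the spliceosome to nearby splice sites through a tail rich in arginine and serine. Cytoplasmic SRPK kinases phosphorylate that tail and so promote import into the nucleus, where SR proteins gather in nuclear speckles. CLK kinases phosphorylate the tail further and release SR proteins from speckles to sites of transcription. Many SR genes carry poison exons, whose inclusion sends the transcript to nonsense-mediated decay. CLK1 and CLK4 transcripts are known to be held in the nucleus with introns retained. A sum of reads per gene, as measured here, does not separate these transcript forms.

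The values were reads per gene divided by the size factor of the library, called normalized reads here. Library totals were 17431646 to 23565985 reads. The test took in 15539 genes with at least 10 reads in at least 3 libraries, and all 10 members were among them. The construct's own transcript was not analysed here. Markers fitted an epithelial line only in part. KRT8, KRT18, KRT19, EPCAM and CDH1 were abundant, while VIL1, CDX1 and LGR5 averaged below 10 normalized reads in every group. The summed level of the 10 colon epithelial markers was 45699 to 52960 normalized reads in CR3 libraries, 57806 to 60954 in scramble, 55188 to 59257 in reverse and 55915 to 62829 in mCherry libraries. The 7 fibroblast markers summed to 1611 to 1871 normalized reads in CR3 libraries, 798 to 836 in scramble, 733 to 905 in reverse and 777 to 1009 in mCherry libraries. VIM made up most of that difference, at a mean of 764 normalized reads in CR3 and 65 to 97 in the other groups. COL1A1, the most abundant of the 7, averaged 973 normalized reads in CR3 cells, 726 in scramble, 764 in reverse and 807 in mCherry cells, and was called higher against scramble and reverse, at adjusted p-values of 0.00651 and 0.0214, but not against mCherry, at 0.0714 (limma). DCN stayed below 1 and COL1A2 below 2. The 6 leukocyte markers summed to at most 21.3 normalized reads, with PTPRC listed at 0. The part of these marker shifts in the results below was not tested. In bulk RNA, fewer cells of a type and less RNA per cell cannot be told apart.

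Promoter sequence was taken from RefSeq, build GRCh38.p14, for 9 of the 10 genes, with 12 annotated start sites between them, and no entry matched SRSF2. Each window below holds the 250 bases before the start site, written 5′ to 3′. CLK4 is shown because it rose in CR3 cells, and CLK1 as a kinase that passed no test with the deposited size factors. SRSF1 and SRSF3 are shown as SR genes that fell, and SRSF5 as the SR gene that did not. Capitals mark matches, on either strand, to 6 motifs: the E-box CACGTG, the CCAAT box, the GC box GGGCGG, the cyclic AMP response element TGACGTCA, the TATA box TATAAA and the YY1 core AAGATGG.
CLK4, chr5:178627051-178627300, minus strand: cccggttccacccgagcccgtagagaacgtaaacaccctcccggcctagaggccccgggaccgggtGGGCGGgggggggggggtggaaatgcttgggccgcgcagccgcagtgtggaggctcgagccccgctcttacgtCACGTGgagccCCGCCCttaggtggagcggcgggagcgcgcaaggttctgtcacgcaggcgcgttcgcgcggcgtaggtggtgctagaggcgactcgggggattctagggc
CLK1, chr2:200864659-200864908, minus strand: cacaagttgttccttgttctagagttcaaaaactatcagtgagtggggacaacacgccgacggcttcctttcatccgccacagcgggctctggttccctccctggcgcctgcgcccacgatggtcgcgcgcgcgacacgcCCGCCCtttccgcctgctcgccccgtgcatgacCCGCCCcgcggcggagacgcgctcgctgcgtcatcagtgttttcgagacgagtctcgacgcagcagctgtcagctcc
SRSF1, chr17:58007247-58007496, minus strand: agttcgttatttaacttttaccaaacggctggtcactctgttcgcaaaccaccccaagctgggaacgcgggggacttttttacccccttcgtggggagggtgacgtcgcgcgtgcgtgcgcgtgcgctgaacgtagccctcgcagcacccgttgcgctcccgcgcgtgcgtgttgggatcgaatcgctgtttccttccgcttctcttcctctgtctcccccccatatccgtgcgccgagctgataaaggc
SRSF3, chr6:36594112-36594361, plus strand: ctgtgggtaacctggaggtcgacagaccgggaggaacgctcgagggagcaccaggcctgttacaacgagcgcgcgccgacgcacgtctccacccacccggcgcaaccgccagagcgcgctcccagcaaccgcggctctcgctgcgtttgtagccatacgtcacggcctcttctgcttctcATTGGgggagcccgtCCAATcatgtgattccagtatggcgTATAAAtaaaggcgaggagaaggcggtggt
SRSF5, chr14:69766892-69767141, plus strand: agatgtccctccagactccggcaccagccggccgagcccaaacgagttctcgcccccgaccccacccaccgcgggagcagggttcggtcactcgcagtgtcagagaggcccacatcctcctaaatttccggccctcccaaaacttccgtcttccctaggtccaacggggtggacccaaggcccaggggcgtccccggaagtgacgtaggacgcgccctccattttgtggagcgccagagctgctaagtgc
The CLK4 window held an E-box, with its first base 111 bases before the start, and a GC box on each side of it. CLK2 was the other member with an E-box, 72 bases before its start. An E-box occurred in 6.34% of the 35116 RefSeq promoter windows of the same length. GC boxes lay in 8 of the 12 member windows and in 42.6% of all windows. The windows of the CLK1 start sites overlap and hold the same GC boxes, and those of SRSF7 also share GC boxes. The member windows are therefore not separate counts. SRSF3 had a TATA box 30 bases before its start and a CCAAT match on each strand. SRSF7 also had a TATA box, 27 bases before its more downstream start site, and CLK3 had CCAAT matches before its more upstream one. The TATA letters occurred in 10.7% and the CCAAT letters in 32% of all windows. The SRSF1 and SRSF5 windows matched none of the 6 motifs. No member window held the cyclic AMP element or the YY1 core, which occurred in 1.65% and 3.7% of all windows. GC content was 71.2% for CLK4, 64.4% for CLK1, 60.0% for SRSF1, 62.4% for SRSF3 and 64.8% for SRSF5, against a median of 58.0% over all windows. A match in these letters is a description and does not show that a factor binds there.

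The SR genes were expressed far above the CLK genes. Per kilobase of GENCODE release 29 basic exon, SRSF1 averaged 1837 ± 91.7 normalized reads in CR3 cells and 2123 ± 149 in mCherry cells (SD, n = 3 each). SRSF2, SRSF6, SRSF3, SRSF7 and SRSF5 followed in that order, and SRSF5 averaged 883 ± 24.0 normalized reads per kilobase in CR3 cells and 880.2 ± 25.4 in mCherry cells (SD, n = 3 each). The order of the 10 genes was the same in all 4 groups by this measure, although the gap between SRSF1 and SRSF2 was smaller than the SD of SRSF1 in CR3, reverse and mCherry cells. CLK3, CLK2 and CLK1 came next, at 426 ± 45.7, 400.4 ± 10.6 and 394 ± 24.8 normalized reads per kilobase in CR3 cells, and there these neighbours did not differ beyond their spread. CLK4 was the lowest, at 78.6 ± 1.49 normalized reads per kilobase in CR3 cells, 65.0 ± 2.55 in scramble, 65.4 ± 3.32 in reverse and 64.4 ± 5.09 in mCherry cells. With the exons of all annotated transcripts as the length, CLK3 dropped to 57.4 ± 6.15 normalized reads per kilobase in CR3 cells, because its annotated exon length grows to 20443 bases from 2751, and CLK4 was still the lowest at 39.8 ± 0.75.

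Among the kinases, CLK4 rose in CR3 cells. CLK1, CLK2 and CLK3 did not pass the test in any comparison with all 12 libraries and the deposited size factors. CLK4 had 308, 319 and 318 normalized reads in the CR3 libraries, against 272, 255 and 254 in scramble, 268, 247 and 272.5 in reverse and 279, 238 and 258 in mCherry libraries. All 3 CR3 libraries lay above all 9 others, which 13.7% of the genes tested also did. The log2 fold change of CLK4 was 0.27 against scramble, 0.26 against reverse and 0.29 against mCherry, each with a standard error of 0.09, or 1.21-fold, 1.20-fold and 1.22-fold. The adjusted p-values, from limma with Benjamini-Hochberg adjustment over all genes tested, were 0.0232, 0.0314 and 0.0228 in the same order. Of all genes tested, 18.9% were higher against scramble, 16.7% against reverse, 13.9% against mCherry and 10.9% against all 3. The CLK4 calls were the weakest among the members. Against mCherry, the adjusted p from limma was 0.106 without mCherry replicate 2, 0.0564 without CR3 replicate 2 and 0.0655 without CR3 replicate 3. Against scramble it was 0.0557 without CR3 replicate 2, 0.0617 without CR3 replicate 3, 0.0674 without scramble replicate 2 and 0.0711 without scramble replicate 3. Against reverse it was 0.051, 0.0691 and 0.079 without CR3 replicates 1, 2 and 3, and 0.055 and 0.111 without reverse replicates 1 and 2. Over the 12 fits of each comparison that left out 1 library, the log2 fold change of CLK4 lay between 0.22 and 0.34.

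CLK1, the kinase best known for phosphorylating SRSF1, had 905, 999 and 1020.4 normalized reads in CR3 libraries, against 917, 960.1 and 869.6 in scramble, 911, 883.5 and 872.5 in reverse and 903.5, 866 and 969.8 in mCherry libraries. The groups overlapped. Its log2 fold change in CR3 cells was 0.09 against scramble, 0.13 against reverse and 0.09 against mCherry, with 95% intervals of -0.04 to 0.22, -0.0025 to 0.26 and -0.04 to 0.23 and adjusted p-values of 0.288, 0.124 and 0.301 (limma). CLK2, known in mice as a regulator of gluconeogenesis in the liver, averaged 867 ± 22.9 normalized reads in CR3 cells, 829.5 ± 63.1 in scramble, 812 ± 18.5 in reverse and 837 ± 48.7 in mCherry cells (SD, n = 3 each). Its 3 CR3 libraries lay above all 3 reverse libraries, as in 22.3% of all genes tested, and overlapped the other groups. The adjusted p-values of CLK2 were 0.282 to 0.596 with the deposited size factors (limma). CLK3, abundant in testis, averaged 1173 ± 126 normalized reads in CR3 cells, 1198 ± 51.5 in scramble, 1260.5 ± 83.5 in reverse and 1284 ± 131 in mCherry cells (SD, n = 3 each). The coefficient of variation of CLK3 was 10.7% in CR3 and 10.2% in mCherry cells, and its log2 fold changes of -0.03, -0.11 and -0.13 against scramble, reverse and mCherry had adjusted p-values of 0.774, 0.336 and 0.254 (limma). Against scramble the log2 fold change of CLK3 was 0.06 with library size scaling. The summed CLK level was 3331 ± 91.8 normalized reads in CR3 cells, 3203.5 ± 57.2 in scramble, 3224 ± 85.6 in reverse and 3293 ± 71.1 in mCherry cells (SD, n = 3 each). CLK4 made up 9.47% ± 0.43 of that sum in CR3 cells, 8.13% ± 0.29 in scramble, 8.14% ± 0.36 in reverse and 7.85% ± 0.62 in mCherry cells.

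**Figure D1:**
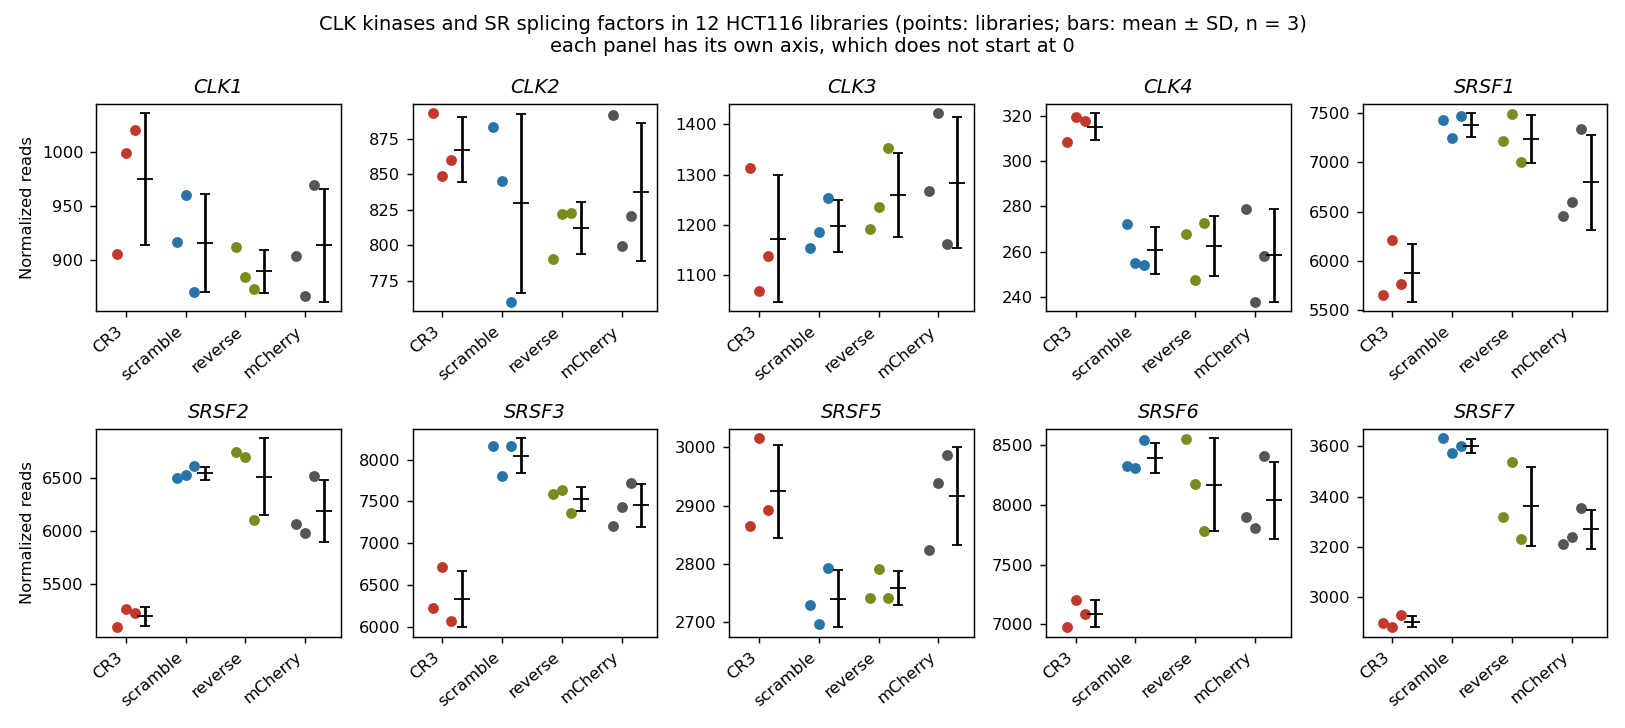
Normalized reads of the 10 genes in every library (vertical axes, each with its own range that does not start at 0), with CR3, scramble, reverse and mCherry from left to right; points are libraries and bars the mean ± SD of 3. The CR3 points of CLK4 lie above all 9 others, and those of SRSF1, SRSF2, SRSF3, SRSF6 and SRSF7 lie below all 9 others.

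Of the 6 SR genes, SRSF1, SRSF2, SRSF3, SRSF6 and SRSF7 fell in CR3 cells against each of the 3 other groups, and SRSF5 did not. With CLK4, that made 6 of 10 members called in each CR3 comparison and in all 3 together. Of all genes tested, 37.5% were called against scramble, 33.3% against reverse, 28.2% against mCherry and 22.0% in the same direction against all 3. The SR genes fell where 18.6% of all genes were lower against scramble, 16.6% against reverse, 14.3% against mCherry and 11.1% against all 3. The share of lower genes differed with the level. Between the lowest and highest SR member in mean level, 32.7% of the 1224 genes were lower against all 3 groups. That range, 2835 to 7923 normalized reads, does not cover every gene of the lists below. The 3 CR3 comparisons share the CR3 libraries, so they are not independent of each other.

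SRSF1, among the first SR proteins described and an oncoprotein when overproduced, had 5661, 6214 and 5766 normalized reads in CR3 libraries, against 7429, 7245 and 7469 in scramble, 7214, 7491 and 7009 in reverse and 6453, 6598 and 7343 in mCherry libraries. All 3 CR3 libraries lay below all 9 others, which held for 13.4% of the genes tested. The log2 fold change was -0.33 against scramble, -0.30 against reverse and -0.21 against mCherry (standard error 0.05), with adjusted p-values of 8.4e-05, 0.00024 and 0.00592 (limma). SRSF1 shares 1890 of its 3340 annotated exon bases with AC015813.2 on the same strand. AC015813.2 was listed at 0 in every library, and how reads in the shared bases were assigned was not tested.

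SRSF2, a speckle protein recurrently mutated in myelodysplastic syndromes, had 5096, 5269 and 5234 normalized reads in CR3 libraries, against 6498, 6527 and 6612 in scramble, 6744, 6698.5 and 6103 in reverse and 6069, 5983 and 6524 in mCherry libraries. The CR3 libraries lay closer together than the reverse or mCherry ones and below all 9 others. SRSF2 fell by 0.33 on the log2 scale against scramble, 0.32 against reverse and 0.25 against mCherry, with adjusted p-values of 2.73e-05, 4.21e-05 and 0.000598 (limma). SRSF2 shares 1106 exon bases with MFSD11 on the opposite strand. MFSD11 averaged 737 normalized reads in CR3 cells, 647 in scramble, 658 in reverse and 662 in mCherry cells. Whether reads were counted by strand is not given in the sources used here, and reads in the shared bases cannot be assigned with certainty. CLK3 likewise shares 701 exon bases with EDC3 on the opposite strand, which averaged 1532 normalized reads in CR3 cells and 1380 to 1415 in the other groups.

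SRSF3, the smallest SR protein and an adaptor for mRNA export, had 6218, 6711 and 6063 normalized reads in CR3 libraries, against 8167, 7804 and 8163 in scramble, 7588, 7631 and 7365 in reverse and 7209, 7434 and 7719.7 in mCherry libraries. SRSF3 was 0.79-fold against scramble, 0.84-fold against reverse and 0.85-fold against mCherry. Its fall against scramble was the largest of the 10 members in any comparison, but SRSF2 was also 0.79-fold there. Against reverse and mCherry SRSF2 fell more than SRSF3, to 0.80-fold and 0.84-fold. The adjusted p-values of SRSF3 were 1.33e-05, 0.000392 and 0.000815 (limma).

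SRSF7, which with SRSF3 links splicing to export and carries a zinc knuckle, had 2898, 2883 and 2928 normalized reads in CR3 libraries, against 3631, 3572 and 3600.3 in scramble, 3317, 3537 and 3231 in reverse and 3213, 3239 and 3356 in mCherry libraries. The CR3 libraries differed by less than 50 normalized reads and lay below the other 9. SRSF7 fell by 0.31 on the log2 scale against scramble, 0.21 against reverse and 0.17 against mCherry, with adjusted p-values of 2e-05, 0.000993 and 0.00588 (limma). SRSF6, an SR protein known to drive skin hyperplasia when overproduced in mice, was the SR gene with the most reads, at 6977, 7201 and 7088 normalized reads in CR3 libraries, against 8328, 8312 and 8540.2 in scramble, 8555, 8172 and 7782 in reverse and 7899, 7810.0 and 8408 in mCherry libraries. The CR3 libraries again lay below all others. SRSF6 fell by 0.24 on the log2 scale against scramble, 0.20 against reverse and 0.18 against mCherry, with adjusted p-values of 0.000345, 0.00182 and 0.00538 (limma).

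SRSF5, known for directing the insulin-responsive splicing of PRKCB, was the SR member that passed no test with the deposited size factors. It had 2865, 3015 and 2893 normalized reads in CR3 libraries, against 2730.5, 2697 and 2793 in scramble, 2742, 2791.5 and 2741.5 in reverse and 2823, 2938 and 2987 in mCherry libraries. The CR3 libraries lay above all 3 scramble and all 3 reverse libraries and overlapped the mCherry ones. Of all genes, 25.1% had every CR3 library above every scramble library, and 22.3% above every reverse library. The log2 fold change was 0.09 against scramble, 0.08 against reverse and 0.00 against mCherry, with adjusted p-values of 0.0867, 0.133 and 0.958 (limma). The 95% intervals were 0.0061 to 0.18, -0.0036 to 0.17 and -0.08 to 0.09, so a fall of the size seen in SRSF6 against mCherry lay outside the interval in each comparison. The difference in response between SRSF5 and the other SR genes was not tested as such.

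**Figure D2:**
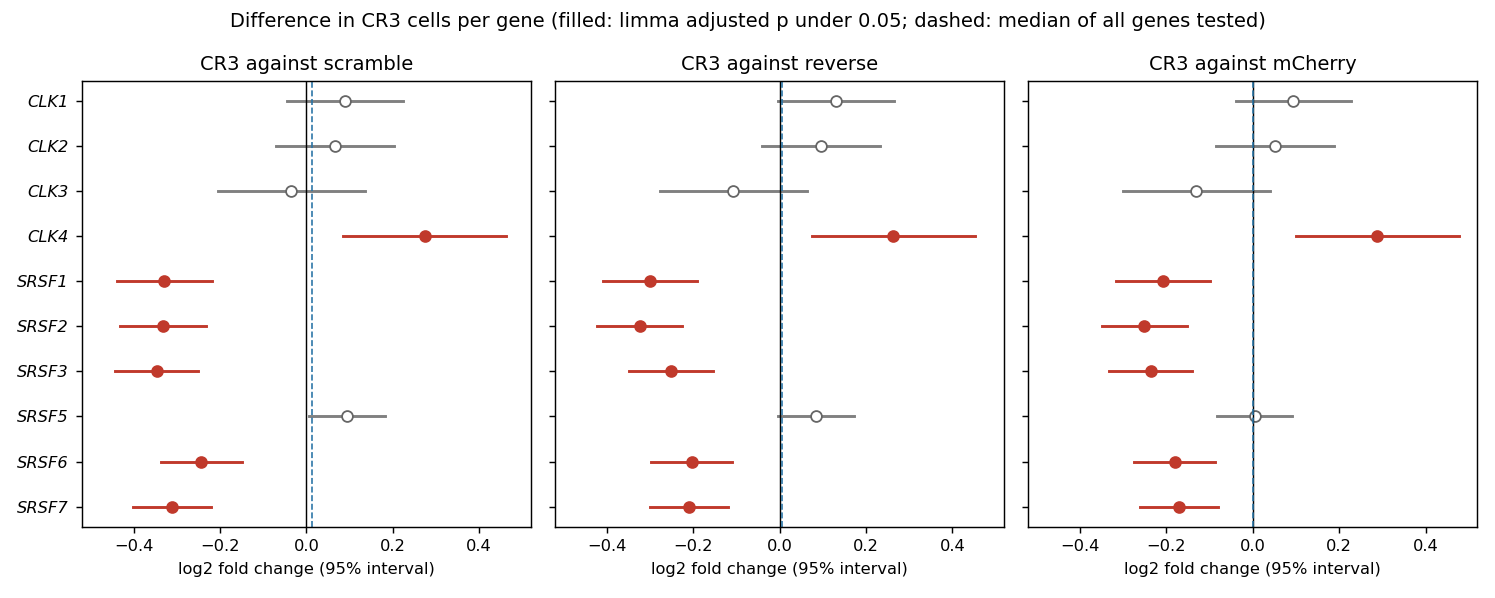
Log2 fold change of each gene in CR3 cells against scramble, reverse and mCherry cells (horizontal axes) with its 95% interval from limma; filled points had an adjusted p under 0.05 and the dashed line is the median of all 15539 genes. CLK4 lies right of 0 and SRSF1, SRSF2, SRSF3, SRSF6 and SRSF7 lie left of it in all 3 panels.

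The summed SR transcripts fell too, which follows from the genes above, as the sum holds the same reads. The 6 SR genes together had 30327 ± 847 normalized reads in CR3 cells, 36706 ± 515 in scramble, 35571 ± 1163 in reverse and 34669 ± 1455 in mCherry cells (SD, n = 3 each). They took 0.163% of all reads in CR3 libraries, 0.185% in scramble, 0.180% in reverse and 0.175% in mCherry libraries. The makeup of the sum shifted with it, as SRSF5 held 9.64% ± 0.01 of the SR sum in CR3 cells, 7.47% ± 0.04 in scramble, 7.76% ± 0.22 in reverse and 8.42% ± 0.21 in mCherry cells. The 3 CR3 shares of SRSF5 lay between 9.63% and 9.65%. The median log2 fold change of the 6 SR genes was -0.32 against scramble, -0.23 against reverse and -0.19 against mCherry, and that of the 4 CLK genes was 0.08, 0.11 and 0.07. Over all genes tested the median was 0.01, 0.01 and 0.00 in the same order.

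Scaling changed some calls but, in the CR3 comparisons, the direction of no member other than CLK3 against scramble. Scaling by library size alone moved the median of all genes to 0.10 against scramble, 0.09 against reverse and 0.09 against mCherry, and turned the genes called against all 3 groups into 2753 higher and 924 lower, where the deposited size factors gave 1687 higher and 1725 lower. With it, SRSF2 and SRSF3 were lower against all 3 groups, and CLK4 and CLK1 higher. SRSF1, SRSF6 and SRSF7 were then no longer called against mCherry, at adjusted p-values of 0.0889, 0.127 and 0.152 (limma), and were still lower against scramble and reverse. SRSF5 was then higher against scramble and reverse, at adjusted p-values of 0.00172 and 0.00363 (limma), and by upper quartile scaling at 0.0204 and 0.0454. CLK1 had adjusted p-values of 0.0358, 0.0156 and 0.0435 against scramble, reverse and mCherry with library size scaling (limma). CLK2 was then also higher against reverse, by 0.18 on the log2 scale with an adjusted p of 0.0393 (limma). Members called came to 8 against scramble, 9 against reverse and 4 against mCherry with that scaling. Of the 15539 genes tested, 6286, 5580 and 4812 were called with it, in the same order. The 5 SR genes that fell had negative log2 fold changes under each scaling used.

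**Figure D3:**
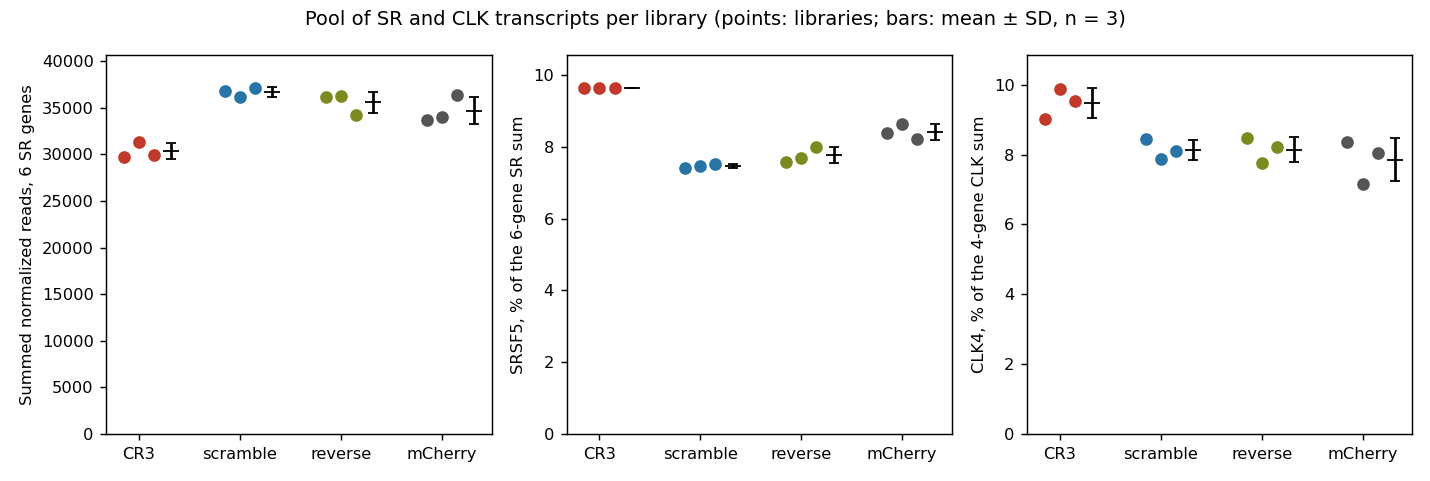
Summed normalized reads of the 6 SR genes, the share of SRSF5 in that sum and the share of CLK4 in the sum of the 4 CLK genes (vertical axes from 0) in each library, with CR3, scramble, reverse and mCherry from left to right; bars are the mean ± SD of 3. The CR3 libraries lie below the others in the left panel and above them in the middle and right panels.

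Among the scramble, reverse and mCherry cells no member passed the test (limma). Of all genes, 1.50% were called between scramble and mCherry, 0.624% between reverse and mCherry and 0.483% between reverse and scramble. At an unadjusted p under 0.05, 4 members differed between scramble and mCherry, none between reverse and mCherry, and 1 between reverse and scramble, against 14.4%, 9.35% and 7.10% of all genes. The member farthest apart was SRSF7, at 3601 ± 29.5 normalized reads in scramble and 3269.5 ± 76.3 in mCherry cells (SD, n = 3 each), a log2 fold change of 0.14 with an adjusted p of 0.123 (limma). SRSF1 and SRSF3 were likewise higher in scramble than in mCherry cells, by 0.12 and 0.11 on the log2 scale, and SRSF5 was lower, at -0.09, with adjusted p-values of 0.293, 0.274 and 0.335 (limma). Without mCherry replicate 3, SRSF1 passed the test between scramble and mCherry, with a log2 fold change of 0.18 and an adjusted p of 0.0422 (limma), and 593 genes were called there, against 233 with all libraries. CLK4 differed by 0.01 to 0.02 on the log2 scale among these 3 groups.

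Across the 12 libraries the 5 SR genes that fell varied together, with Pearson correlations of their log2 levels between 0.911 for SRSF6 with SRSF7 and 0.981 for SRSF2 with SRSF6. These correlations hold the CR3 difference itself and a shared size factor per library, and are given as a description. SRSF5 correlated at -0.47 with SRSF3 and -0.62 with SRSF7, the ends of its range with the 5. CLK4 correlated with them at -0.78 to -0.83. CLK1 and CLK3 ran against each other, at -0.819, and CLK1 and CLK4 together, at 0.621.

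The genes closest in pattern to each member were sought among 11017 genes by Pearson correlation of log2 levels over the 12 libraries. SRSF1 was closest to RPL22L1 and MCM10, at 0.991 and 0.990, SRSF2 to EIF2A and TCP1, at 0.992 and 0.988, and SRSF3 to TXN and SHCBP1, both at 0.986. SRSF6 was closest to GNL3 and PSMA3, both at 0.985, and SRSF7 to ALYREF and METTL13, at 0.989 and 0.986. TCP1, a subunit of the cytosolic chaperonin, averaged 7298.5 ± 352 normalized reads in CR3 cells, 10206 ± 183 in scramble, 9815 ± 536 in reverse and 9378 ± 663 in mCherry cells. The correlations of CLK4 with STARD13 and DUSP8 were 0.932 and 0.928. DUSP8, a phosphatase of MAP kinases, averaged 336.5 ± 2.21 normalized reads in CR3 cells, 248 ± 1.77 in scramble, 248 ± 18.5 in reverse and 249 ± 2.65 in mCherry cells. CLK1 was closest to ZFYVE26 and TRMT11 (0.908 and 0.887), CLK3 to PTPRH and DGLUCY (0.922 and 0.902), CLK2 to ZNF629 and DCAKD (0.814 and 0.812) and SRSF5 to KBTBD2 and EID1 (0.884 and 0.874).

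Of 7 other SR and SR-like genes tested, TRA2B, TRA2A and SRSF9 were lower in CR3 cells against all 3 groups, SRSF12 was higher, and 3 were neither. Of all genes 11.1% were lower against all 3, and 32.7% of those at the level of the SR members. With library size scaling 2 of the 7 were lower, where 924 of all 15539 genes were. TRA2B, a sequence-specific splicing activator with a tail on both sides of its RNA recognition motif, had log2 fold changes of -0.35 against scramble, -0.32 against reverse and -0.30 against mCherry, next to -0.28, -0.27 and -0.25 for its paralogue TRA2A. SRSF12, known as a repressor of splicing, had 22.4, 32.5 and 22.3 normalized reads in CR3 libraries, 82 reads in all, against 3 reads over the scramble, 2 over the reverse and 0 over the mCherry libraries. The ratio was 28.2 against scramble (exact 95% interval 9.32 to 140, counting error only), 39.7 against reverse (10.6 to 333) and at least 8.72-fold higher than mCherry, taking a floor of 3 reads per library. SRSF12 passed the filter only through the CR3 libraries. The median of the 7 genes was -0.17 against scramble, -0.17 against reverse and -0.16 against mCherry. SRSF8 was listed at 0 in every library under the identifier matched to its symbol, and whether its reads stand under another identifier was not tested.

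Among 11 tested kinases, phosphatases and import factors that act on SR proteins beside the CLKs, PPP1CC and TNPO3 were lower in CR3 cells against all 3 groups, DYRK1B was higher and 8 were neither, where 22.0% of all genes changed in 1 direction against all 3. PPP1CC, a catalytic subunit of protein phosphatase 1, had log2 fold changes of -0.28 against scramble, -0.28 against reverse and -0.23 against mCherry. TNPO3, the importin that carries phosphorylated SR proteins into the nucleus, had log2 fold changes of -0.35, -0.31 and -0.22. DYRK1B, a kinase related to the CLKs and known from quiescent cells, averaged 138 normalized reads in CR3 cells, 71.2 in scramble, 53.6 in reverse and 53.0 in mCherry cells, and its log2 fold changes were 0.94, 1.35 and 1.36. Over the 11 genes the median log2 fold change was -0.05, -0.08 and -0.06. With library size scaling it was 0.04, 0.01 and 0.03, below the median of all genes, at 0.10, 0.09 and 0.09.

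The hnRNP proteins, which often act against SR proteins at exons, were mostly lower as well. Of 18 tested, 17 were lower in CR3 cells against all 3 groups and HNRNPH2 was not called, with medians of -0.31 against scramble, -0.28 against reverse and -0.22 against mCherry. HNRNPA1 had the largest log2 fold changes of this list, -0.48, -0.44 and -0.41, followed by HNRNPA2B1 and SYNCRIP against mCherry, at -0.35 and -0.29. With library size scaling 8 of the 18 were lower against all 3. In the core spliceosome 12 of 26 genes were lower and none higher. These were led by the Sm ring genes SNRPD2, SNRPD1 and SNRPF at -0.37, -0.35 and -0.32 against mCherry. With library size scaling 5 of the 26 were lower. Of all genes tested, 11.1% were lower against all 3 groups, and 32.7% of those at the level of the SR members. HNRNPA2B1 lay above that level and SNRPF below it, so the second share is not matched to these lists by level. With library size scaling 924 of all 15539 genes were. HNRNPA1 and Sm genes have processed pseudogenes, and how reads that map to several places were counted is not given in the sources used here.

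Of 16 speckle and SR-related genes, 5 were lower and none higher in CR3 cells against all 3 groups, where 11.1% of all genes and 32.7% of genes at the level of the SR members were lower. With library size scaling 2 of the 16 were lower, where 924 of all 15539 genes were. SRRM1 and PNN, which sit with SR proteins on exons, had log2 fold changes of -0.26 and -0.24 against mCherry, and U2AF1, which reads the end of the intron and has a near-identical copy in the genome build, had -0.23. The list's medians were -0.14 against scramble, -0.09 against reverse and -0.06 against mCherry. The last of these was 0.03 with library size scaling, where the median of all genes was 0.09. Of 13 nonsense-mediated decay factors, EIF4A3, MAGOH and SMG9 were lower and SMG5 higher, and with library size scaling 1 was lower and 1 higher. EIF4A3 and MAGOH, subunits of the exon junction complex, had log2 fold changes of -0.27 and -0.24 against mCherry, and SMG5, an adaptor for decay enzymes, had 0.25. RBM8A was listed at 0 in every library under the identifier matched to its symbol. Whether its reads stand under another identifier was not tested, so no level is given.

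**Figure D4:**
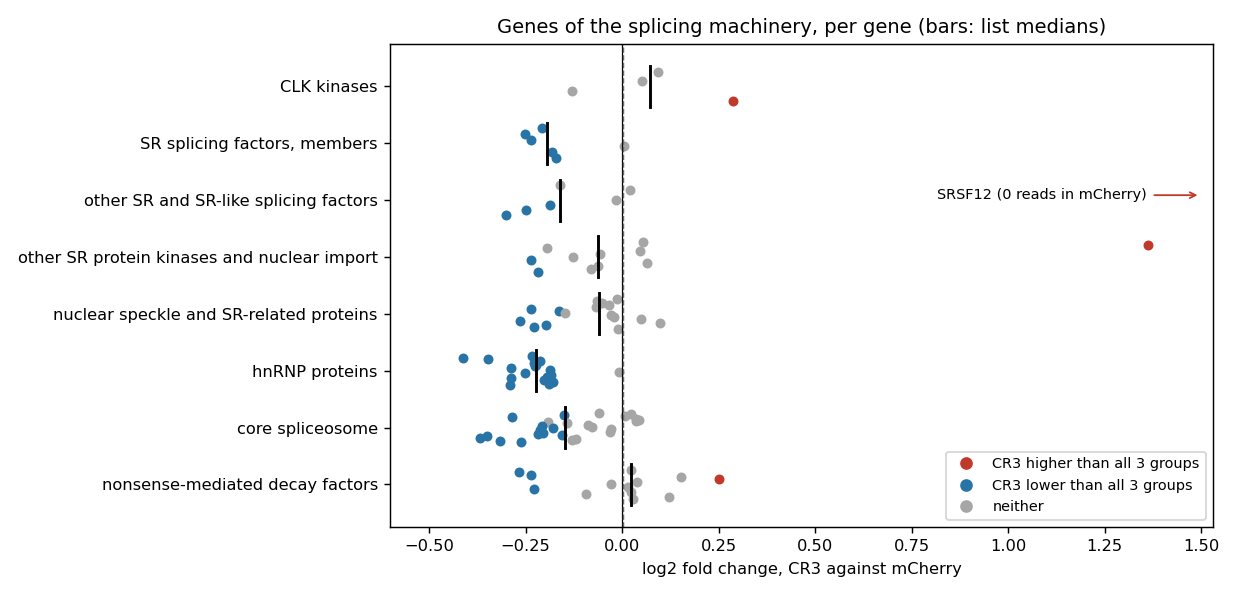
Log2 fold change in CR3 against mCherry cells (horizontal axis) for the tested genes of 8 lists (rows), with each list's median as a black bar and the median of all genes dashed; red and blue points were higher or lower in CR3 cells than in all 3 other groups. All but 1 of the 18 hnRNP points and 5 of the 6 SR members are blue, CLK4 is the red point among the 4 CLK kinases, and SRSF12, with 0 reads in mCherry libraries, is drawn as an arrow at the axis end.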

How the data were processed

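Library values came from 1 deposited table of 63677 Ensembl identifiers and 12 columns, matched to libraries by title. Per the submitters' processing notes, the build was GRCh38 and the tools, in no stated order, included STAR, Salmon, featureCounts, DESeq2, edgeR, GATK, Trim Galore, MultiQC and FastQC. Their versions, the annotation release and whether counting used strand were not given in the sources at hand. Per the labels' protocols, libraries were made with a stranded TruSeq polyA kit. The deposited values are of another kind than plain counts: reads per gene, divided by the authors by 1 size factor per library, as the values themselves show, with the decimal mark lost from all but 18138 cells, each of 1 read.

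Reads were rebuilt as whole multiples of each library's value of 1 read (100.0% of 265152 non-zero cells, relative tolerance 1e-11). For every gene, the likeliest powers of 10 of its cells were taken, given the groups. In 1951 cells (0.74%) another power came within a likelihood ratio of 20. No member had such a cell, but 13 member cells were true multiples of 10 whose last zeros had been dropped. Of 16162 genes with at least 10 reads in at least 3 libraries, 623 with such a cell were left out, leaving 15539. Because the deposited values are not counts as written, limma 3.58.1 in R 4.3.3 was run with its trend option on log2(normalized reads + 1), a pseudocount that understates changes of low genes. All 12 libraries in 4 groups entered each fit, two-sided, with Benjamini-Hochberg adjustment over all genes tested, called under 0.05, for 6 comparisons. The procedure was tested on simulated data. Python 3.11.15, numpy 2.4.6, pandas 2.3.3, scipy 1.17.1 and matplotlib 3.10.9 did the rest.

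Symbols were matched through GENCODE release 29 and a gene name table. Counting error limits genes of few reads. Outside the 10 members, the text names at most 3 genes per list with the largest change against mCherry among those called in all 3 CR3 comparisons, and the 2 genes most alike each member. SRSF8, SRSF9, SMG9, HNRNPH2, RBM8A and overlapping genes were named after their values were seen. Members, lists and tests were chosen with earlier results of these data known. Alternatives were other pseudocounts, filters, scalings, fits of 2 groups, a replicate block, powers chosen without group labels, genes with uncertain cells kept, and leaving out each library.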

Additional observations from a re-analysis of the deposited data

How the results depend on the processing

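The 6 member calls in each CR3 comparison (limma) kept their number under other pseudocounts, filters, powers of 10 and the replicate block. With upper quartile scaling they numbered 7 against scramble, 7 against reverse and 6 against mCherry, and with library size scaling 8, 9 and 4. Of the 15539 genes tested, 5858, 5167 and 4353 were called with upper quartile scaling, in the same order. With library size scaling 6286, 5580 and 4812 were. SRSF1, SRSF2, SRSF3, SRSF6 and SRSF7 were lower in all 180 values that left out 1 library and in 12 of 15 with library size scaling. CLK4 lost its call against mCherry in the fit of only those 2 groups (limma, adjusted p = 0.0607) and in 3, 4 and 5 of 12 leave-one-out fits against mCherry, scramble and reverse. Each leave-one-out loss fell in a fit that left out 1 of the 3 libraries of either group compared. The call held in the remaining fits, some of which also left out a library of those 2 groups. CLK1 in CR3 against reverse passed without CR3 replicate 1 (0.18, adjusted p = 0.0456).

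Counts among the 3 other groups moved most. Genes called between reverse and mCherry numbered 97, and 146 without a filter, 49 with at least 50 reads, 61 with powers chosen without labels, 59 in the 2-group fit and 78 to 184 leaving out a library (184 without mCherry replicate 3). Between reverse and scramble the count was 75, and 40 with at least 50 reads. Between scramble and mCherry it was 233, and 76 in the 2-group fit and 98 to 593 leaving out a library. Without any of the mCherry or scramble replicates it fell to 98 to 128, except 593 without mCherry replicate 3. Members called there ranged from 0 to 1.

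Some fold changes near 0 changed sign. CLK3 in CR3 against scramble was 0.057 with library size and 0.0001 with upper quartile scaling, and CLK1 in scramble against mCherry -0.0043 with the upper quartile. Leaving out a library gave log2 ranges of -0.019 to 0.022 for SRSF5 (CR3 against mCherry) and -0.12 to 0.030 for CLK3 (CR3 against scramble). In scramble against mCherry they were -0.033 to 0.048 for CLK1, -0.061 to 0.047 for CLK2 and -0.043 to 0.071 for CLK4. In reverse against mCherry they were -0.074 to 0.0068 for CLK1, -0.076 to 0.0037 for CLK2, -0.093 to 0.052 for CLK3, -0.033 to 0.081 for CLK4, -0.0093 to 0.040 for SRSF3 and -0.011 to 0.058 for SRSF6. In reverse against scramble they were -0.090 to 0.018 for CLK2, -0.017 to 0.052 for CLK4, -0.034 to 0.038 for SRSF2 and -0.0017 to 0.024 for SRSF5. The cause was not tested.

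No pairing by replicate number was seen in the values, which cannot show how the libraries were handled. Deviations of same-numbered libraries correlated at -0.13 to 0.06 and others at -0.19 to 0.20, and 1 of 12 libraries matched its own number best. With the replicate block, genes called between scramble and mCherry numbered 138, and no other count moved by over 1.5 times. Depth limits CLK4 most among the members, at 242 to 364 reads per library.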
